A study of Canis lupus familiaris with 16 samples.

Results

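The genes described here are 8 genes that set up or mark the B-cell identity of a lymphocyte: the surface proteins CD38 and FCER2, the coactivator POU2AF1, and the transcription factors SPI1, PAX5, EBF1, IRF4 and IKZF3. They were taken by name, as all methylation peaks whose deposited gene symbol is one of the 8, which gave 78 of the 145240 peaks in 4 peak lists and 8 of the 18147 gene symbols with a transcription start. No member was without a peak in all 4 lists. DNA methylation was profiled by MethylCap-seq, which pulls methylated fragments out of sheared genomic DNA for sequencing, and a peak is a stretch where such fragments pile up. The lymphoma group was 5 dogs aged 5 to 13 years with high-grade B-cell lymphoma of stage III to V (a schnauzer, a dachshund, a golden retriever, a mixed-breed dog and a dog with no breed given), sampled by aspirating enlarged lymph nodes. The healthy group was 3 dogs aged 2 to 7 years (a mixed-breed dog, a golden retriever and a standard poodle), whose mononuclear cells were isolated from blood. Every dog gave 2 libraries, an L and an M-H one. The sources used here do not say what these letters stand for.

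EBF1 and PAX5 are the factors that commit a lymphoid progenitor to the B lineage and hold it there, and SPI1, also called PU.1, acts in both B cells and myeloid cells according to its level. IRF4 and IKZF3 have roles in activated B cells and plasma cells, among other stages, and POU2AF1 helps octamer-binding factors to activate B-cell genes. Methylation at a promoter usually goes with a silent gene, whereas methylation inside the body of a gene is common and is found in transcribed genes too.

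The authors deposited 1 peak list per group and fraction, pooled over dogs, so there is no spread between dogs, no test between groups was possible, and no difference given here has a replicate check. The lists hold 45623 peaks for lymphoma L, 44811 for healthy L, 34939 for lymphoma M-H and 19867 for healthy M-H. Without read numbers, depth is unknown, and list length may vary with it and with the number of dogs pooled. Fold enrichment is the authors' value for each peak, a ratio over a background that is not stated. No listed peak lies below a fold of 6, so a locus without a peak may hold methylated DNA with a lower value. In the pooled lists age (5 to 13 years in lymphoma, 2 to 7 in healthy dogs) cannot be separated from disease. Lymph node and lymphoma, and blood and health, went together in every dog, so disease and tissue cannot be told apart, nor can a change in the cell mixture and a change in methylation per cell. Markers of other cells were read in the same way. Of 24 T-cell markers 19 were measured, and the promoters of CD8A, CD8B and CD40LG were peak-bearing in the lymphoma lists only, in both fractions. That of CD5 was so in healthy L only, 1 more carried a peak in both groups, and 14 in L and 15 in M-H had none. No peak was assigned to the markers CD3D, CD3E and CD3G in any list, so their promoters were not measured. Of 20 myeloid markers 10 were measured, of which 4 had a lymphoma-only promoter peak in L (FCGR1A, CD14, VCAN and C5AR1) and the same without VCAN in M-H, with 0 healthy-only. Summed over a list, T-cell markers held 32 peaks in lymphoma L and 24 in healthy L, and 26 and 14 in M-H, while myeloid markers held 16 and 15, and 13 and 3. The T-cell promoter counts lie near the shares over all genes given in the next paragraph. The myeloid lymphoma-only promoters, 4 of 10 in L and 3 of 10 in M-H, lie above the shares of 16.0% and 18.7%, on few genes. For all peaks with a gene symbol the ratio of lymphoma to healthy numbers was 1.03 in L and 1.87 in M-H. The part of these cells in the results below was not tested.

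Of the 8 promoters 4 carried a peak in some list, as did 7226 of all 18147, and those 4 did not share a direction. A promoter is taken here as 1 kb either side of the transcription start. In L, CD38 had a lymphoma-only promoter peak, POU2AF1 and SPI1 had one in healthy only, none of the 8 had one in both groups and 5 had one in neither. Over all 18147 genes in L, 16.0% were lymphoma-only, 3.85% healthy-only, 15.5% in both and 64.7% in neither. In M-H, CD38 was again lymphoma-only, FCER2 was healthy-only, 0 were in both and 6 were in neither, beside 18.7%, 0.716%, 10.2% and 70.4% of all genes. Thus 1 of 8 members was lymphoma-only in either fraction, which is near the share over all genes. Healthy-only members were 2 of 8 in L and 1 of 8 in M-H, counts too small to set against the low share over all genes. PAX5, EBF1, IRF4 and IKZF3 had no promoter peak in any of the 4 lists.

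**Figure D1:**
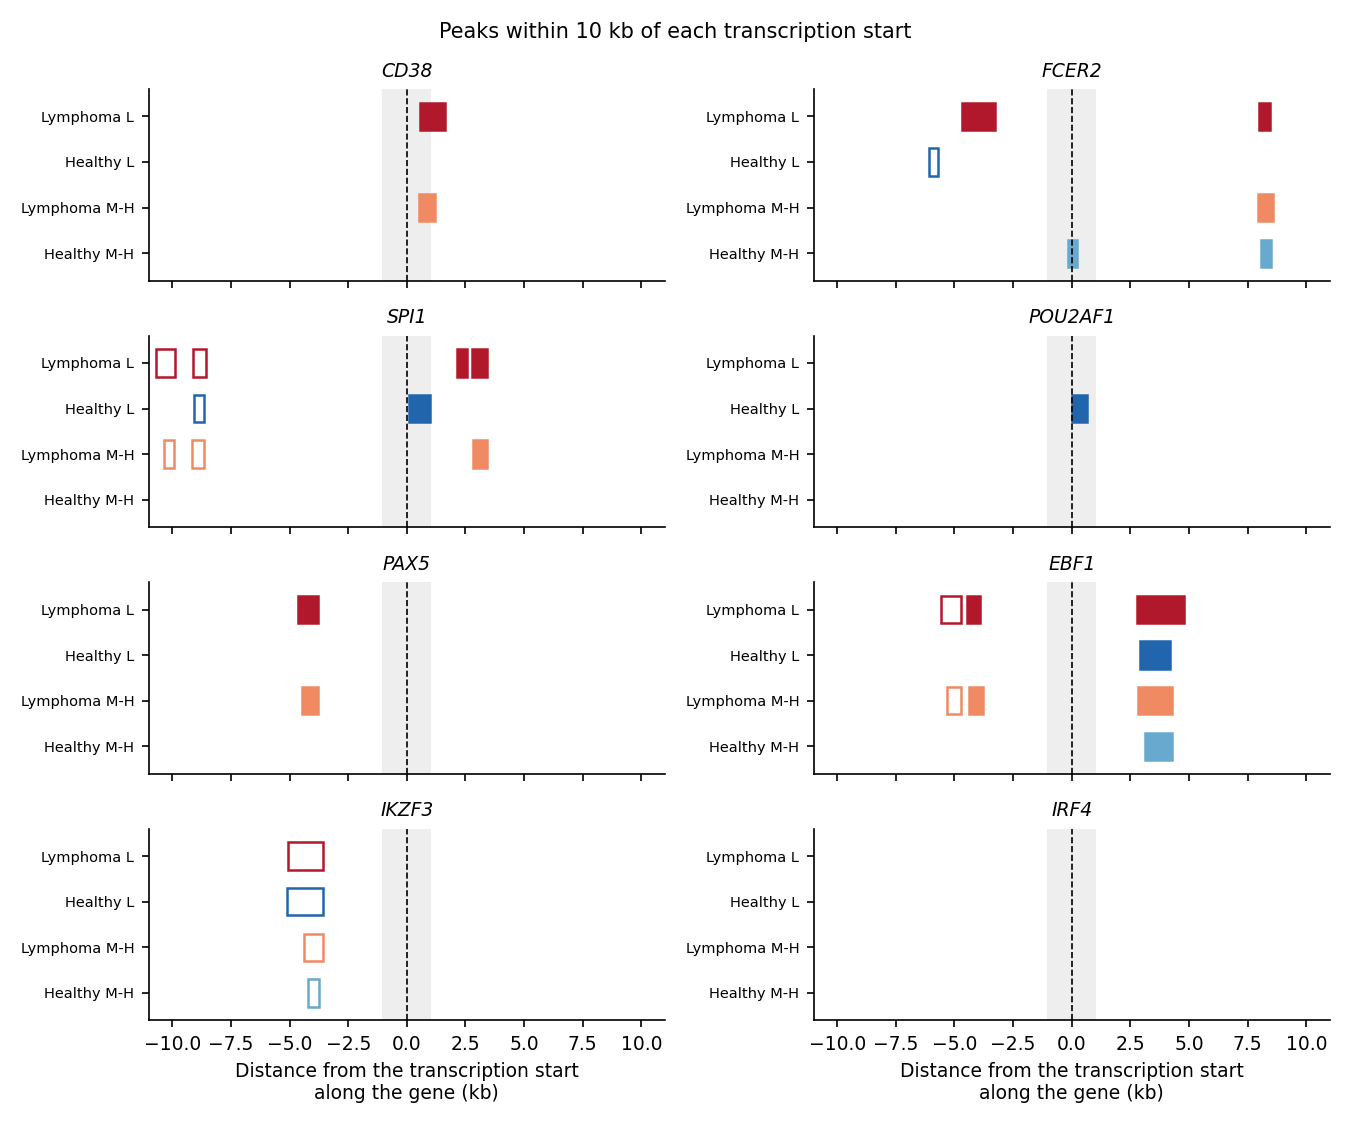
Peaks within 10 kb of the transcription start of each gene, drawn as boxes along the gene in kb (negative is upstream), 1 row per pooled list. Filled boxes are assigned to the gene itself and open boxes to another gene or to none, and the grey band is 1 kb either side of the start. Inside the band, CD38 has boxes in both lymphoma rows, POU2AF1 and SPI1 in the healthy L row and FCER2 in the healthy M-H row.

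CD38, an enzyme on the surface of activated lymphocytes and plasma cells that breaks down NAD, had 1 peak in each lymphoma list and 0 in either healthy list. Its lymphoma L peak lay on chromosome 3 from 64576151 to 64577214 (CanFam3.1, annotated as coding sequence, in a CpG island shore) with a fold enrichment of 13.5, higher than 82.9% of the peaks in that list. Its lymphoma M-H peak ran from 64576535 to 64577220, was flagged as a CpG island, and had a fold of 17.0, higher than 87.8% of its list. The peaks overlap, and their edges nearest the start lay 541 bp downstream of it in L and 535 bp in M-H. The nearest healthy L peak was 36.0 kb from the lymphoma L peak, and the nearest healthy M-H peak was 318 kb from the lymphoma M-H peak. With promoters taken as 500 bp either side of the start, or as 2 kb upstream to 500 bp downstream, CD38 had no promoter peak in any list.

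FCER2 encodes CD23, the low-affinity IgE receptor of mature B cells, and carried different peaks in the 2 fractions. In the healthy M-H list a peak of 398 bp spanned its start (chromosome 20, 52459805 to 52460202, annotated as intron) with a fold of 8.43. It was the only one of the 78 peaks that the authors flagged as a promoter or a transcription start. No other list had a peak there, and the nearest lymphoma M-H peak was 7.71 kb away. In lymphoma L a peak of 1431 bp lay 3258 bp upstream of the start (52463304 to 52464734, fold 7.27) and was flagged as an enhancer. Healthy L had no FCER2 peak, but it had an unassigned peak with the enhancer flag 1007 bp beyond the lymphoma one, with a fold of 6.62. Downstream of the gene, about 8.27 kb from the start, lymphoma L (7.01), lymphoma M-H (10.2) and healthy M-H (7.89) shared a shore peak that healthy L lacked. FCER2 therefore had 2 lymphoma and 0 healthy peaks in L, and 1 and 2 in M-H.

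POU2AF1, the octamer coactivator also known as OCA-B, had a peak at its start in healthy L only. This peak of 633 bp lay on chromosome 5 from 21671007 to 21671639, in the 5' UTR, 6 bp from the start, and carried both the shore and the enhancer flag. Its fold of 9.41 was higher than 72.7% of the healthy L peaks. The nearest lymphoma L peak was 12.9 kb away, so the lymphoma list had none within 5 kb. A second POU2AF1 peak, in coding sequence 22.8 kb downstream, was shared by lymphoma L (fold 6.16, 418 bp) and healthy L (fold 6.13, 345 bp). Both values lie just above the lowest fold listed, so this shared site is near the limit of both lists. POU2AF1 had no peak in either M-H list.

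SPI1, whose level steers cells between B-lymphoid and myeloid fates, carried its peaks at different distances from the start in the 2 groups. Healthy L had a peak of 896 bp in the 5' UTR from 42253938 to 42254833 on chromosome 18, 88 bp downstream of the start, with a fold of 6.34. Lymphoma L had no peak there but had 2 intronic peaks further in, at 42255994 to 42256397 (fold 6.13) and at 42256644 to 42257267 (fold 12.3). The latter was also present in lymphoma M-H (42256661 to 42257267, fold 9.58). Healthy M-H had no SPI1 peak at all. All of these lie in a CpG island shore, and only 1160 bp separate the healthy peak from the nearest lymphoma one. The healthy-only promoter of SPI1 did not hold when peaks under a fold of 6.5 or 8 were left out, nor when absence was required over 5 kb. From the lymphoma M-H peak the nearest healthy M-H peak was 11.7 kb away. About 9 kb upstream, a peak annotated to the 3' UTR of LOC102157137 and flagged as an enhancer was present in healthy L (6.16) and in both lymphoma lists (9.94 in L and 9.73 in M-H).

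PAX5, which commits cells to the B lineage and keeps other programmes off, held the most peaks of the 8 genes. It had 14 peaks in lymphoma L, 11 in healthy L, 9 in lymphoma M-H and 6 in healthy M-H, more than at least 98.7% of all genes in each list, without regard to gene length. Merging overlapping peaks of the 4 lists gave 14 PAX5 loci, of which 10 were seen in both groups, 5 of them in all 4 lists. Of all merged loci, with or without a gene, 52.1% were seen in both groups. The loci seen in all lists lay in introns 31.2, 68.5, 128, 149 and 166 kb from the start. At the one 31.2 kb from the start, a shore on chromosome 11, the fold was 13.3 in lymphoma L (53358645 to 53359297), 8.74 in healthy L, 18.5 in lymphoma M-H and 9.55 in healthy M-H. The value of 18.5 was the highest of the 17 member peaks in lymphoma M-H. The locus 68.5 kb from the start carried the enhancer flag, with folds of 7.36, 7.17, 14.1 and 8.38 in the same order of lists.

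The PAX5 loci that differed between the groups included both loci with a peak flagged as CpG island. One lay upstream, 3788 bp from the start in lymphoma L (53393993 to 53394866, fold 8.68) and 3773 bp in lymphoma M-H (53393978 to 53394667, fold 13.8). The nearest healthy peaks were 19.1 kb away in L and 34.8 kb in M-H. The other lay in an intron about 47.2 kb downstream, as 2 peaks in lymphoma L (folds 11.1 and 7.95) and 1 of 1370 bp in lymphoma M-H (fold 10.4), with the nearest healthy peak 10.1 kb away in L. Only the first of these 3 peaks carried the island flag, the others being called shore. Another lymphoma-only locus, 186 kb from the start, had a fold of 6.02 in lymphoma L alone, at the limit of that list. Healthy L alone had a peak 36.2 kb from the start, with a fold of 10.3. In the 3' UTR, 189 kb from the start, 3 of the lists shared a peak, with folds of 12.8 in lymphoma L, 8.90 in healthy L and 15.1 in lymphoma M-H. Thus 10 of the 14 PAX5 loci were common to both groups, beside 52.1% of all merged loci, and the island stretches were among the exceptions.

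**Figure D2:**
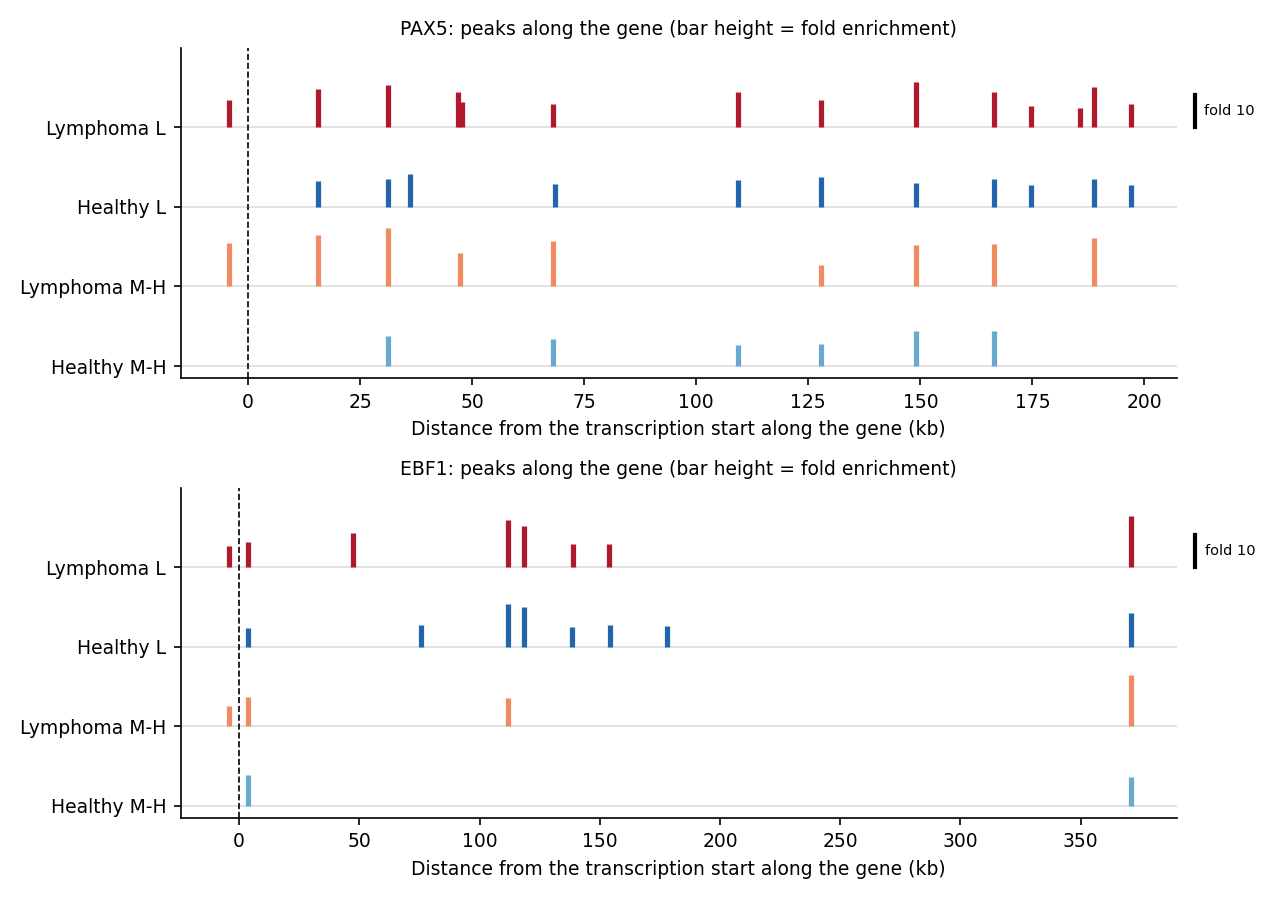
Peaks of PAX5 and EBF1 along the gene, as distance of the peak centre from the transcription start in kb, 1 row per pooled list. Bar height is the authors' fold enrichment (scale bar, 10). Most bars align between lymphoma and healthy rows, and the bars upstream of the dashed start line occur in the lymphoma rows only.

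EBF1, the pioneer factor that opens B-cell genes, had 8 peaks in lymphoma L, 8 in healthy L, 4 in lymphoma M-H and 2 in healthy M-H. Its 10 merged loci spread from upstream of the start to an intron 371 kb downstream, and 6 were seen in both groups (52.1% of all merged loci). The furthest, on chromosome 4 from 51749170 to 51749782, was in all 4 lists, with folds of 16.2 in lymphoma L, 10.7 in healthy L, 16.2 in lymphoma M-H and 9.09 in healthy M-H. A CpG island in the first part of the gene, 3.79 kb from the start, was in all lists too, with folds of 7.97, 6.01, 9.32 and 9.58. Its peaks were among the longest, at 1990 bp in lymphoma L, 1289 bp in healthy L, 1469 bp in lymphoma M-H and 1187 bp in healthy M-H. Introns 112 and 118 kb from the start held strong shared peaks in L, at 14.7 and 13.1 in lymphoma and 13.6 and 12.6 in healthy. The healthy L peak at 112 kb exceeded 96.9% of its list.

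Upstream of EBF1 the groups differed. A CpG island peak lay 3896 bp before the start in lymphoma L (51373841 to 51374418, fold 6.61) and 3793 bp before it in lymphoma M-H (51373919 to 51374521, fold 6.40), with no healthy peak within 6.79 kb in L or 6.90 kb in M-H. Just beyond it, both lymphoma lists had a second island peak assigned to LOC111095570, with folds of 7.57 in L and 6.46 in M-H. The EBF1 values exceeded 13.4% and 7.82% of the peaks in their lists, and those of LOC111095570 exceeded 31.7% and 8.39%. In the body, lymphoma L alone had a shore peak 47.2 kb from the start (fold 10.8). Healthy L alone had intronic peaks 75.8 kb (fold 6.95) and 178 kb (fold 6.54) from the start.

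IRF4 and IKZF3 were almost without peaks. IRF4, a factor of activated B cells and plasma cells, had 1 peak in the 4 lists, in an intron 16.4 kb from its start in lymphoma M-H (chromosome 35, 776517 to 777032). Its fold of 6.04 exceeded only 0.604% of that list. IKZF3, the zinc finger factor Aiolos, had 1 peak, in an intron 70.5 kb from its start in lymphoma L (chromosome 9, 22713800 to 22714225, fold 6.89). Its upstream flank was nevertheless methylated in both groups. A shore stretch ending 3565 to 3733 bp before the IKZF3 start had a peak in every list, with folds of 10.9 in lymphoma L, 6.83 in healthy L, 16.9 in lymphoma M-H and 10.6 in healthy M-H. The authors assigned those peaks to ZPBP2, the neighbouring gene, so they are not among the 78.

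Over the 8 genes the lymphoma list held 29 peaks and the healthy list 22 in L, a ratio of 1.32 beside 1.03 for all peaks with a gene symbol. In M-H the numbers were 17 and 10, a ratio of 1.70 beside 1.87, so the excess of lymphoma peaks in M-H is no larger than over all genes. Peaks were assigned to 7 of the 8 genes in lymphoma L (79.6% of all genes had one), to 4 in healthy L (75.1%), to 6 in lymphoma M-H (67.5%) and to 3 in healthy M-H (43.4%). Without a peak were IRF4 in lymphoma L, CD38, FCER2, IRF4 and IKZF3 in healthy L, and POU2AF1 and IKZF3 in lymphoma M-H. In healthy M-H they were CD38, POU2AF1, SPI1, IRF4 and IKZF3. In L, 5 members had more lymphoma than healthy peaks (31.6% of all genes), 1, POU2AF1, had more healthy peaks (28.0%), and EBF1 and IRF4 had equal numbers. In M-H, 5 members had more lymphoma peaks (42.3% of all genes), 1, FCER2, had more healthy peaks (3.85%), and POU2AF1 and IKZF3 had none in either. With the M-H lists cut to equal length by fold, EBF1 turned from 4 against 2 peaks to 1 against 2 and IRF4 had 0 in both. In these cut lists 3 members had more lymphoma and 2 more healthy peaks. The cut kept lymphoma M-H peaks only from a fold of 9.32 and left the healthy M-H list whole, so the thresholds were unlike. With the same threshold of 8 in both lists, EBF1 had 3 peaks in lymphoma M-H and 2 in healthy M-H. At a fold of at least 8, FCER2 had 1 peak in each M-H list and 0 in each L list.

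**Figure D3:**
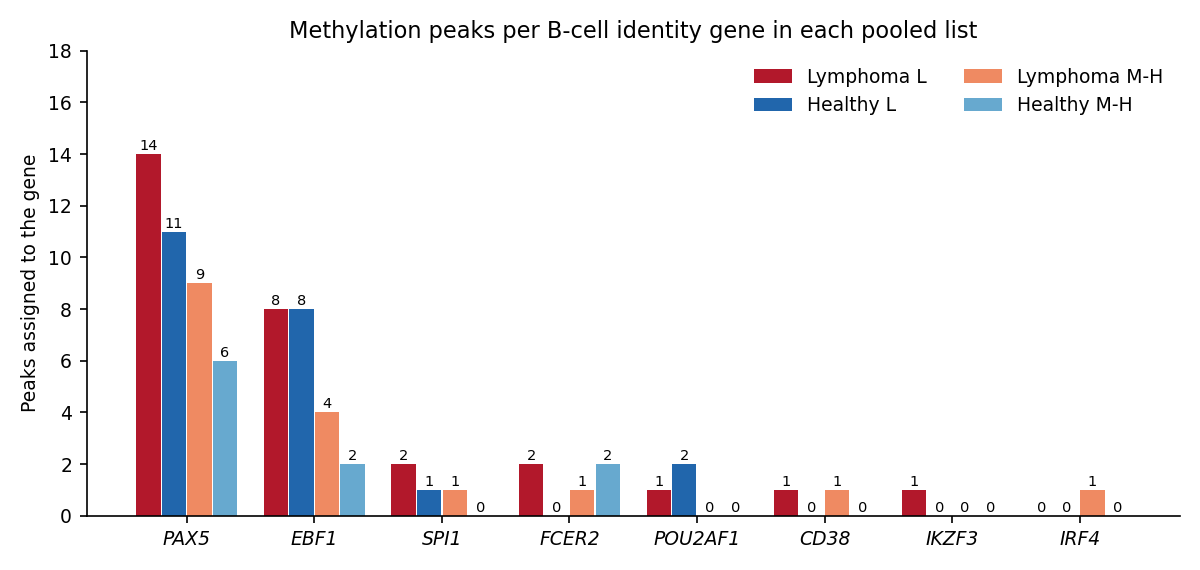
Number of peaks assigned to each gene in the 4 pooled lists, 1 bar per list with its count above it. PAX5 has 14, 11, 9 and 6 peaks and EBF1 has 8, 8, 4 and 2, while no other gene exceeds 2 in any list.

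Most peaks lay inside the genes. Of the 29 lymphoma L peaks, 23 were in gene bodies, 5 in flanks and 1 in a promoter, and of the 22 healthy L peaks the numbers were 19, 1 and 2. In M-H they were 13, 3 and 1 for lymphoma and 8, 1 and 1 for healthy. Introns held 72.4% of the members' peaks in lymphoma L (58.3% of all peaks with a gene), 77.3% in healthy L (63.1%), 70.6% in lymphoma M-H (54.3%) and 90.0% in healthy M-H (54.6%). These shares rest mostly on PAX5 and EBF1. They held 12 and 7 of the 23 gene body peaks in lymphoma L, and 10 and 8 of the 19 in healthy L. In M-H they held 8 and 3 of 13 in lymphoma, and 6 and 2 of 8 in healthy. The authors' promoter flag, carried by 18.2% of all gene peaks in lymphoma L, 12.3% in healthy L and 21.4% in lymphoma M-H, was on 0 of the members' peaks in these lists. In healthy M-H it was on 1 of 10, that of FCER2, beside 15.0% of all gene peaks. The CD38, POU2AF1 and SPI1 peaks counted here as promoter peaks by the 1 kb rule did not carry it.

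Within L, 12 of the 29 lymphoma peaks did not overlap a healthy peak, against 38.6% of all gene peaks of that list, and 5 of the 22 healthy peaks did not overlap a lymphoma peak, against 36.1%. Within M-H, 9 of 17 lymphoma peaks were unshared (52.1% over all genes) and 2 of 10 healthy peaks were (10.2%). The members' lymphoma peaks were thus shared about as often as those of other genes. The 5 unshared healthy L peaks were those of the POU2AF1 and SPI1 promoters, 1 in PAX5 and 2 in EBF1. The 2 in M-H were the FCER2 promoter peak and the PAX5 peak 109 kb from the start, which both L lists also held.

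Lymphoma and healthy peaks of a member overlapped one to one in 17 pairs in L and 8 in M-H. Pairs were chosen for overlapping, so their centres must lie near each other, with a median offset of 37.5 bp in L and 30.2 bp in M-H beside 32.5 and 43 bp over all genes. The largest, 608 bp, was in PAX5 in L. The lymphoma peak was the longer one in 14 of 17 pairs in L, with medians of 633 and 505 bp. All 8 pairs in M-H had the longer peak in lymphoma, with medians of 710 and 468 bp. Over all genes the lymphoma peak was longer in 59.0% of such pairs in L and in 94.2% in M-H, so in M-H the greater length was found in nearly all pairs.

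The 35 merged loci of the members divided by CpG context. Of 5 loci in CpG islands, 4 had peaks in lymphoma lists only and none in healthy lists only, beside 37.5% and 4.99% of all island loci with a gene. A locus counts as island where any of its peaks is flagged so. These 4 were CD38, the 2 PAX5 islands and the upstream island of EBF1, and each was present in both lymphoma lists, a pattern held by 20.0% of all such island loci. The fifth, inside EBF1, was in all 4 lists, with a healthy L fold of 6.01, at the limit of that list. Of 10 shore loci, 3 were lymphoma-only (39.6% of all shore loci) and 2 healthy-only (8.89%). Of 20 loci in neither context, 4 were lymphoma-only (17.2%), 4 healthy-only (33.7%) and 12 were in both groups (49.1%). Over all contexts 11 of 35 loci were lymphoma-only (25.4% of all loci with a gene), 6 were healthy-only (24.0%) and 7 were in all 4 lists (14.9%). With 5 island loci in 3 genes, the island count is a description and was not tested.

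**Figure D4:**
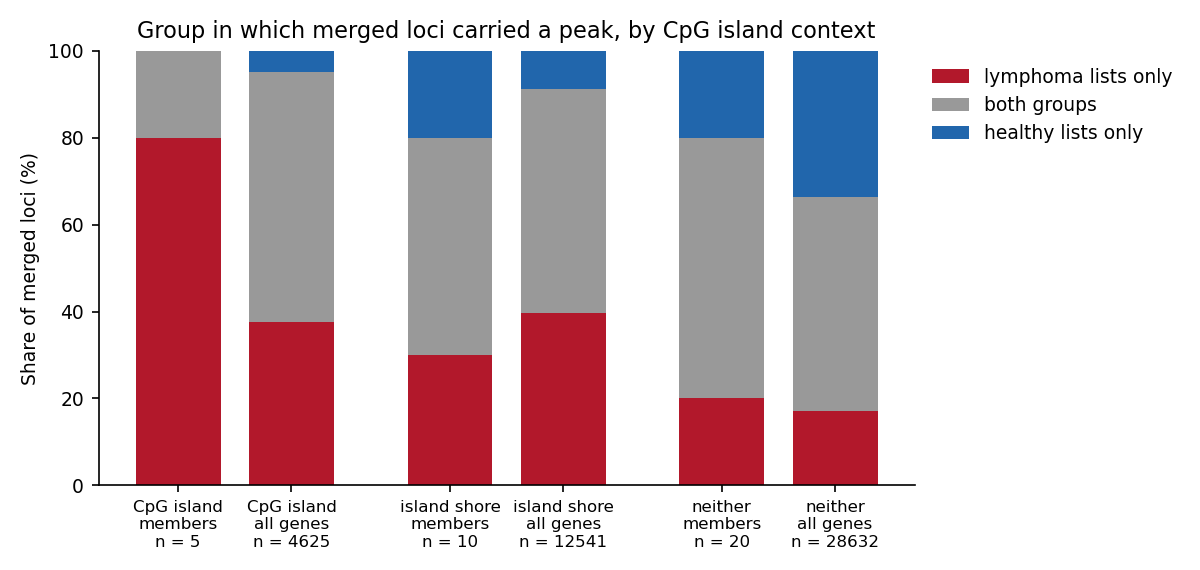
Share of merged loci, in percent, with peaks in lymphoma lists only, in both groups or in healthy lists only, for the 8 genes and for all genes, split by CpG island, island shore and neither. Numbers of loci stand under the bars. The members' island bar rests on 5 loci, 4 of them lymphoma-only.

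The members' folds ran from 6.02 to 16.2 in lymphoma L, from 6.01 to 13.6 in healthy L, from 6.04 to 18.5 in lymphoma M-H and from 6.68 to 11.1 in healthy M-H. The whole lists reached 31.8, 32.6, 27.5 and 26.4. The members' median fold was 8.58 in lymphoma L (median of all peaks 8.92), 7.76 in healthy L (7.77), 13.1 in lymphoma M-H (10.1) and 8.76 in healthy M-H (8.14). Values under 7 made up 6 of 29 peaks in lymphoma L (23.2% of all gene peaks), 9 of 22 in healthy L (34.5%), 3 of 17 in lymphoma M-H (17.5%) and 1 of 10 in healthy M-H (28.0%). PAX5 provided most of the high values in lymphoma M-H, with a median of 13.8 over its 9 peaks. Of the peaks seen in 1 list only, those of IRF4 (6.04), PAX5 at 186 kb (6.02) and SPI1 (6.13 and 6.34) were near the lowest fold. Those of POU2AF1 (9.41), PAX5 at 36.2 kb (10.3) and EBF1 at 47.2 kb (10.8) were well above it. The others lay between, in EBF1 (6.54 and 6.95), IKZF3 (6.89) and FCER2 (7.27 and 8.43).

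**Figure D5:**
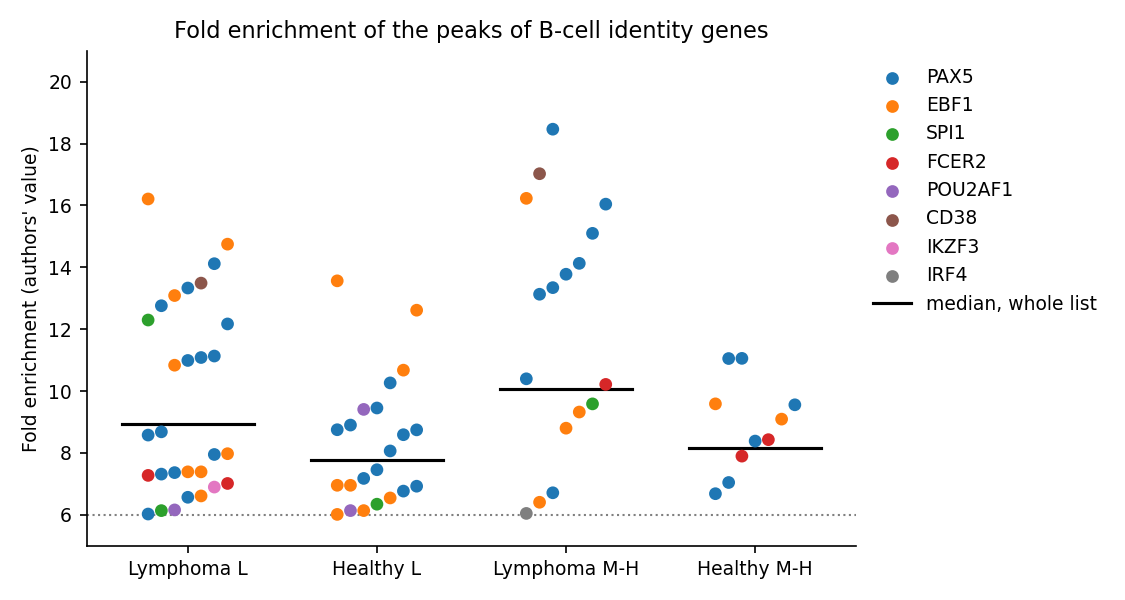
Fold enrichment, as given by the authors, of each of the 78 peaks in the 4 pooled lists, coloured by gene. The black line is the median of the whole list, and the dotted line marks 6, below which no peak is listed. Points lie on both sides of the median in every list, and the highest point of lymphoma M-H is a PAX5 peak at 18.5.

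Between the fractions of the lymphoma group, 16 of 17 M-H peaks overlapped an L peak (80.9% of all gene peaks did), and 17 of 29 L peaks overlapped an M-H peak (61.3%). The exception was the IRF4 peak. In the healthy group, 8 of 10 M-H peaks overlapped an L peak (60.4% over all genes) and 8 of 22 L peaks overlapped an M-H peak (25.5%). The healthy M-H peaks of FCER2 were the 2 without an L counterpart.

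Genes with the same pattern of promoter peaks were numerous. The pattern of CD38, lymphoma-only in both fractions, was shared by 1882 other genes. Nearest to it by the within-list percentile of the 2 folds were ZNF846 (13.4 in L and 17.2 in M-H), EFCAB1 (13.1 and 16.9) and CPNE9 (13.3 and 17.4). POU2AF1 and SPI1 shared a promoter peak in healthy L alone with 620 other genes each. DSC1, MARVELD3 and SLC1A7 had the same fold as POU2AF1 (9.41), and TTC24, SIDT2 and KAZALD1 were nearest to SPI1 (6.33 to 6.35). The 44811 peaks of healthy L hold only 4332 distinct folds, so equal values are common there. FCER2 had a promoter peak in healthy M-H alone, as did 63 other genes, with FOXI2 (8.41), PPIL6 and SMPD2 (both 8.47, from 1 shared peak) nearest. Each likeness rests on 1 or 2 lists.

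A wider set of 55 B-cell genes, 38 of them with a peak somewhere and so measured, left 33 of the 38 without a promoter peak in either group in L and 35 in M-H, beside 64.7% and 70.4% of all genes. In L, SYK, a kinase of the B-cell receptor, was lymphoma-only (fold 7.19). PLCG2, a phospholipase of the same pathway, was healthy-only (6.47). The PLCG2 peak was assigned to LOC102154738 and lay 367 to 779 bp downstream of the PLCG2 start. The promoters of IKZF1 and POU2F2 bore peaks in all 4 lists, as did that of SYK in both M-H lists, where 0 genes of the set were lymphoma-only or healthy-only. By number of peaks, 6 of 14 measured transcription factors had more in lymphoma L and 4 more in healthy L, while in M-H 7 had more in lymphoma and none more in healthy. Of 10 receptor signalling genes, 5 had more in lymphoma L and 3 in healthy L. Of 12 surface proteins, 3 had more lymphoma peaks in L and 6 more healthy peaks. In M-H the surface proteins split 2 and 3. Over all genes the shares were 31.6% and 28.0% in L and 42.3% and 3.85% in M-H, and no difference between these gene groups was tested. The 17 genes with no peak in any list include MS4A1 and CD79A, defining markers of B cells, for which no statement on methylation can be made.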

How the data were processed

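Peak lists were read as deposited. Per the submitters' processing notes BWA, MACS2 and CanFam3.1 were used, with roles, versions and settings not given in the sources used here. The fold enrichment is a ratio computed by the authors, per the file headers, and positions, distances and lengths are in bp. The authors pooled dogs within a group, at the level of reads or of peaks, which is not stated. Per list, 0 to 4 rows had shifted gene columns and were kept as intergenic. In lymphoma L, 51 of 54 symbols turned into dates were restored from the gene description.

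Peak starts were taken as 0-based and are printed 1-based. Transcription starts were recovered from the peak start and the deposited distance, giving 1 start for 18111 of 18147 symbols. A promoter peak overlaps 1 kb either side of the start, whatever gene it is assigned to. Peaks sharing at least 1 bp count as shared, and merged loci join all overlapping peaks of the 4 lists. Percentages over all genes include only genes with an assigned peak in some list. Protein-coding names came from a RefSeq table of UU_Cfam_GSD_1.0, with no coordinates taken from it. No genome was used, so no sequences are shown.

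The members and gene lists were chosen with earlier results of these data known. Named beside the 8 genes are, per list, fraction and direction, up to 4 genes with a one-group promoter peak, by fold, and up to 3 genes nearest to each member with a promoter peak. IKZF1, POU2F2, MS4A1 and CD79A were named after their values were seen. Some results of the wider set are not reported here. No test was run. Python 3.11.15 with pandas 2.3.3 was used, and the overlap and promoter steps were tested on simulated data. Alternatives were other promoter windows, fold thresholds, overlaps, list lengths and ranges of absence.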

Additional observations from a re-analysis of the deposited data

Results flagged for a closer look

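FCER2 had opposite differences in the 2 fractions. Its assigned peaks in lymphoma minus those in healthy came to 2 in L (2 against 0) and to -1 in M-H (1 against 2). At a fold of at least 8 both differences were 0 (0 against 0 in L and 1 against 1 in M-H). The difference between the fractions was not tested, since each list is pooled over dogs and it is not known whether every dog moved the same way.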

How the results depend on the processing

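Over 37 results and 157 alternatives, 126 values stayed within 1.5 times the reported one, 30 moved further and 1 changed direction. Some of the 126 could not have moved, since overlap rules cannot alter a number of peaks and a higher threshold cannot add a promoter peak. The value that changed direction was EBF1 in M-H, whose lymphoma minus healthy peaks went from 2 to -1 with lists of equal length. That setting kept lymphoma M-H peaks only from a fold of 9.32, beside the whole healthy M-H list. With the same threshold of 8 in both lists the EBF1 difference in M-H was 1. At equal length, members with more lymphoma peaks in M-H went from 5 to 3. Those with more healthy peaks went from 1 to 2, and were 0 at a fold of at least 8. With promoters of 2 kb upstream to 500 bp downstream, or of 500 bp either side, lymphoma-only members went from 1 to 0 in L and from 1 to 0 in M-H, because the CD38 peak begins beyond 500 bp. The first of these windows also took the lymphoma-only genes of the wider B-cell set from 1 to 3 in L and from 0 to 1 in M-H. Healthy-only members in L went from 2 to 1 at a fold of at least 8, with absence required over 5 kb, and without peaks under a fold of 6.5, an alternative chosen after seeing the data. SPI1 was the gene lost each time. POU2AF1 in L and FCER2 in M-H kept their calls in every alternative run, but these alternatives could hardly change them. Their folds of 9.41 and 8.43 exceed both thresholds, and the healthy lists, being shorter, were kept whole at equal length. The nearest lymphoma peaks of the same fraction were 12.9 and 7.71 kb away, beyond the 5 kb range. Each call still rests on a single peak in a single pooled list. The healthy-only genes of the wider set in L went from 2 to 0 at a fold of at least 8 and to 1 without peaks under 6.5. At a fold of at least 8 the members' peaks went from 29 to 15 in lymphoma L (unshared, 12 to 6) and from 22 to 11 in healthy L (unshared, 5 to 2), and unshared healthy M-H peaks from 2 to 1. With lists of equal length the last count was 4, since fewer lymphoma peaks were kept. The ratio of lymphoma to healthy member peaks was 1.32 in L (1.27 to 1.45 over its alternatives) and 1.70 in M-H (1.2 to 2.26). For all peaks it was 1.02 and 1.76 in the lists as reported, and was not recomputed for each alternative. The values of 1.45 and 2.26 use covered length, which over whole lists was 33.2 Mb in lymphoma and 26.7 Mb in healthy L. In M-H the whole lists covered 27.9 and 12.4 Mb. The lowest values, 1.27 and 1.2, came with lists of equal length, where all peaks are equal in number. A member ratio from an alternative is therefore not comparable with 1.02 or 1.76.

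No paired analysis was possible because each list pools the dogs of a group, and leaving out 1 dog at a time was not run for the same reason. Depth, which the lists do not give, limits every absence of a peak.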
